A study of Mus musculus with 30 samples.

Results

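The nuclear genes of the mitochondrial respiratory chain were followed across 2 tissues, dorsal root ganglion (DRG) and hind paw, of mice given prolactin (PRL) or vehicle (Veh). Members were chosen by gene symbol, with earlier results of these data known. Taken were every symbol beginning with Nduf followed by a, b, c, s or v, and the 4 Sdh subunit genes. Every symbol beginning with Uqcr, with Cox4 to Cox8 and a letter a to c, or with Atp5 was taken as well. This gave 87 of the 22609 genes counted, with 41 in complex I, 4 in complex II, 8 in complex III, 18 in complex IV and 16 in complex V. The symbol rule leaves out 5 other nuclear chain genes that were read as a separate list, namely Cox4i1, Cox4i2, Cyc1, Cycs and Atpif1, and the chain subunits encoded by mitochondrial DNA were not analysed here.

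The respiratory chain sits in the inner mitochondrial membrane, where complexes I and II pass electrons from NADH and succinate to ubiquinone, complex III passes them on to cytochrome c, and complex IV passes them to oxygen. The proton gradient built by complexes I, III and IV drives complex V, the ATP synthase. Most subunits come from a single gene expressed in every tissue, but several complex IV subunits have a second form used in striated muscle, a tissue rich in mitochondria.

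The 30 libraries formed 10 groups of 3: PRL and Veh in female DRG, male DRG, female paw and male paw, and a further group named PRL_Sh in female DRG and female paw. All mice were C57BL/6J, aged 10 to 12 weeks, with 1 µg of prolactin injected into the plantar hind paw and phosphate-buffered saline as vehicle. The protocol describes a single injection and a course of daily injections over 12 days without saying which library had which, and the meaning of Sh is not given. PRL_Sh libraries were made with an mRNA kit and the other 24 by depletion of ribosomal RNA, so kit and group cannot be told apart wherever PRL_Sh is set against another group. Nothing says that replicates came from separate animals, so p-values measure only the spread between these libraries, which may be technical.

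A set of 3 pairs of complex IV subunits carried the clearest pattern, a muscle form beside a common form: Cox6a2 and Cox6a1, Cox7a1 and Cox7a2, Cox8b and Cox8a. The promoter windows of a muscle form and of 2 common forms are shown because the results turn on how these forms part between libraries; each window is the 250 bases before the gene's start in RefSeq on GRCm38.p6, 5′ to 3′ on the gene's strand, and capitals mark motif matches.
Cox8b (chr7:140900447-140900696, minus strand): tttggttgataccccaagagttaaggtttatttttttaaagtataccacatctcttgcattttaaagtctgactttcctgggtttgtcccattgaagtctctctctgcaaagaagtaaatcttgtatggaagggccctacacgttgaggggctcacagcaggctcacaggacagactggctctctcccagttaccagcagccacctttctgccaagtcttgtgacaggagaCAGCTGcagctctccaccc
Cox8a (chr19:7217617-7217866, minus strand): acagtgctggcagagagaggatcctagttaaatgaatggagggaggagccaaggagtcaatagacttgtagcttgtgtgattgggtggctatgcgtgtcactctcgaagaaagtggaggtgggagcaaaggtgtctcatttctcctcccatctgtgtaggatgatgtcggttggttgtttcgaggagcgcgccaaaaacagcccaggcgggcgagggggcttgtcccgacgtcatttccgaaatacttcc
Cox6a1 (chr5:115348959-115349208, minus strand): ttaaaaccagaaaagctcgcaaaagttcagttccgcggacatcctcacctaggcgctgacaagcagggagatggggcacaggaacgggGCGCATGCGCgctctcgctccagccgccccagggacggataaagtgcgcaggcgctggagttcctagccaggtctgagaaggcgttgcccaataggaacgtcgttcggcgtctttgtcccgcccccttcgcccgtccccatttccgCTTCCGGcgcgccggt
In Cox8b the capitals are the E-box CAGCTG, a sequence read by muscle regulatory factors of the MyoD family, 19 to 14 bases before the start. In Cox6a1 they are GCATGCGC, the core of the nuclear respiratory factor NRF1 motif, on the opposite strand 162 to 155 bases before the start and overlapping it on the gene's strand 160 to 153 bases before, and CCGGAAG on the opposite strand, an ETS-family motif, 16 to 10 bases before it. The Cox8a window held neither, nor did those of Cox7a1 and Cox7a2.

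The windows of 74 members that have a RefSeq entry were searched for 5 motifs, on both strands except TATAAA, which was searched on the gene's strand, beside the windows of 27025 genes. GCATGCGC was present in 9 members (12.2%), against 2.56% of all windows, and CCGGAAG in 13 members (17.6%), against 7.83%. CAGCTG was present in 6 members (8.11%), against 14.7% of all windows, TATAAA in 2 (2.70%), against 8.94%, and the MEF2 motif in 0, against 3.42%. These matches describe letters in the windows and were not tied to any measured binding.

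The rRNA-depleted libraries held 6866545 to 13470783 reads on genes in paw and 8986530 to 13327072 in DRG, and the PRL_Sh libraries 21795035 to 26515208. The lowest, male paw Veh replicate 2, also had the smallest share of counted reads on genes, at 13.6%. Tissue labels were checked against defining markers: Scn10a, a sodium channel of nociceptors, lay between 872.9 and 1275 counts-per-million units (CPM, relative to gene reads) in DRG and at or below 1.73 CPM in paw, while Krt10 of suprabasal keratinocytes lay between 14181 and 28389 CPM in paw and at or below 40.7 CPM in DRG. Skeletal muscle content was read from an index, the mean of log2(CPM + 1) over 20 skeletal muscle genes such as Acta1 and Ckm. The index ranged from 2.93 to 8.80 in rRNA-depleted DRG libraries and from 5.30 to 10.97 in rRNA-depleted paw libraries, so libraries of the same group differed widely in muscle transcripts. In female DRG it was 8.80, 6.46 and 3.88 in PRL libraries, against 3.28, 4.34 and 4.94 in Veh libraries. In male paw it was 10.97, 9.86 and 10.4 in PRL libraries, against 8.02, 10.2 and 9.86 in Veh libraries. All 20 index genes had reads in every group, and Ucp1, the defining gene of brown fat, did not exceed 8.46 CPM in any library. The list of 4 brown adipocyte genes that holds Ucp1 summed to 27.5 to 109.5 CPM in paw and 3.98 to 32.8 CPM in DRG. The part of brown fat in the values of the members was not tested.

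The chain genes together took a small part of all gene reads, in a narrow range in DRG. Members accounted for 0.487% to 0.534% of gene reads in the 12 rRNA-depleted DRG libraries, and for 0.356% to 0.590% in the 12 rRNA-depleted paw libraries. In male paw the share was 0.476%, 0.546% and 0.590% in PRL libraries, against 0.356%, 0.440% and 0.464% in Veh libraries, so the PRL group lay above the Veh group with no overlap. In female paw the ranges overlapped, at 0.371% to 0.473% in PRL libraries and 0.410% to 0.472% in Veh libraries. PRL_Sh libraries, from the mRNA kit, had higher shares, at 1.11% to 1.30% in paw and 0.791% to 0.828% in DRG.

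Levels were compared between genes per kilobase of the longest RefSeq-supported transcript. Atp5b, the catalytic beta subunit of the ATP synthase, held rank 1 of the 87 in both tissues, at 303 ± 32.0 CPM per kilobase in Veh paw and 359 ± 13.1 CPM per kilobase in Veh DRG (SD, n = 6 each). Atp5a1, its alpha partner, held rank 2 in both, at 218.7 and 204.5 CPM per kilobase in paw and DRG. Among the other named subunits, Cox5a of complex IV, whose catalytic core is encoded by mitochondrial DNA, had 78.4 CPM per kilobase in Veh paw and 105.2 in Veh DRG, Sdha, the flavoprotein of complex II, had 59.8 and 90.0, Uqcrfs1, the Rieske iron-sulphur protein of complex III, had 51.4 and 47.4, and Ndufs1, the largest complex I subunit, had 30.5 and 43.5, in the same order of tissues. Members of a single complex were not at a common level: in complex I the core subunits Ndufv1 and Ndufs8 had 48.6 and 26.6 CPM per kilobase in Veh paw. Ndufs7 and Ndufs3 had 42.1 and 12.1 CPM per kilobase there, but part of the Ndufs3 sequence also occurs in other transcripts, as given below.

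Some members could hardly be read at all. Ndufs5 had 0 reads in all 30 libraries, the testis forms Cox8c and Cox7b2 had 1 and 19, and Atp5g2 and Atp5l had 192 and 246. Many 50-nucleotide windows of several members occur elsewhere among annotated transcripts. The share was 87.4% for Atp5g2, 68.5% for Atp5l, 53.0% for Cox7c, 50.5% for Atp5h and 43.2% for Uqcrb. It was 41.2% for Ndufs5, 37.0% for Ndufb4 and 35.8% for Ndufs3, so counts of these members are uncertain. After the filter on low counts, 82 members were tested within each tissue. Atp5g2, Atp5l, Cox7b2, Cox8c and Ndufs5 did not pass in DRG, and Atp5l, Cox6b2, Cox7b2, Cox8c and Ndufs5 did not pass in paw.

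The muscle forms moved with muscle content over a wide range, and their common partners stayed within a narrow band. Over the 12 rRNA-depleted paw libraries Cox6a2 had 1.55, 27.7 and 76.7 CPM as lowest, median and highest value, Cox7a1 1.16, 16.1 and 46.1 CPM, and Cox8b 0.485, 14.9 and 43.8 CPM. In the same libraries Cox6a1 had 41.7, 55.2 and 78.5 CPM, Cox7a2 34.8, 44.0 and 56.0 CPM, and Cox8a 24.7, 28.2 and 52.7 CPM. The lowest paw value of each muscle form came from female paw PRL replicate 3, the paw library with the lowest muscle index, and the highest from male paw PRL replicate 1, the rRNA-depleted library with the highest.

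In DRG the muscle forms were at low levels except in a few libraries. Cox6a2 had 0, 2.10 and 21.5 CPM as lowest, median and highest of 12 libraries, Cox7a1 1.36, 3.06 and 10.2 CPM, and Cox8b 0.307, 1.35 and 12.0 CPM. The highest value of each came from female DRG PRL replicate 1, the DRG library with the highest muscle index, in which 2.86% of gene reads fell on the 20 index genes. The common forms in DRG varied little, at 87.3 to 111.2 CPM for Cox6a1, 62.8 to 74.2 CPM for Cox7a2 and 45.5 to 58.5 CPM for Cox8a.

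**Figure D1:**
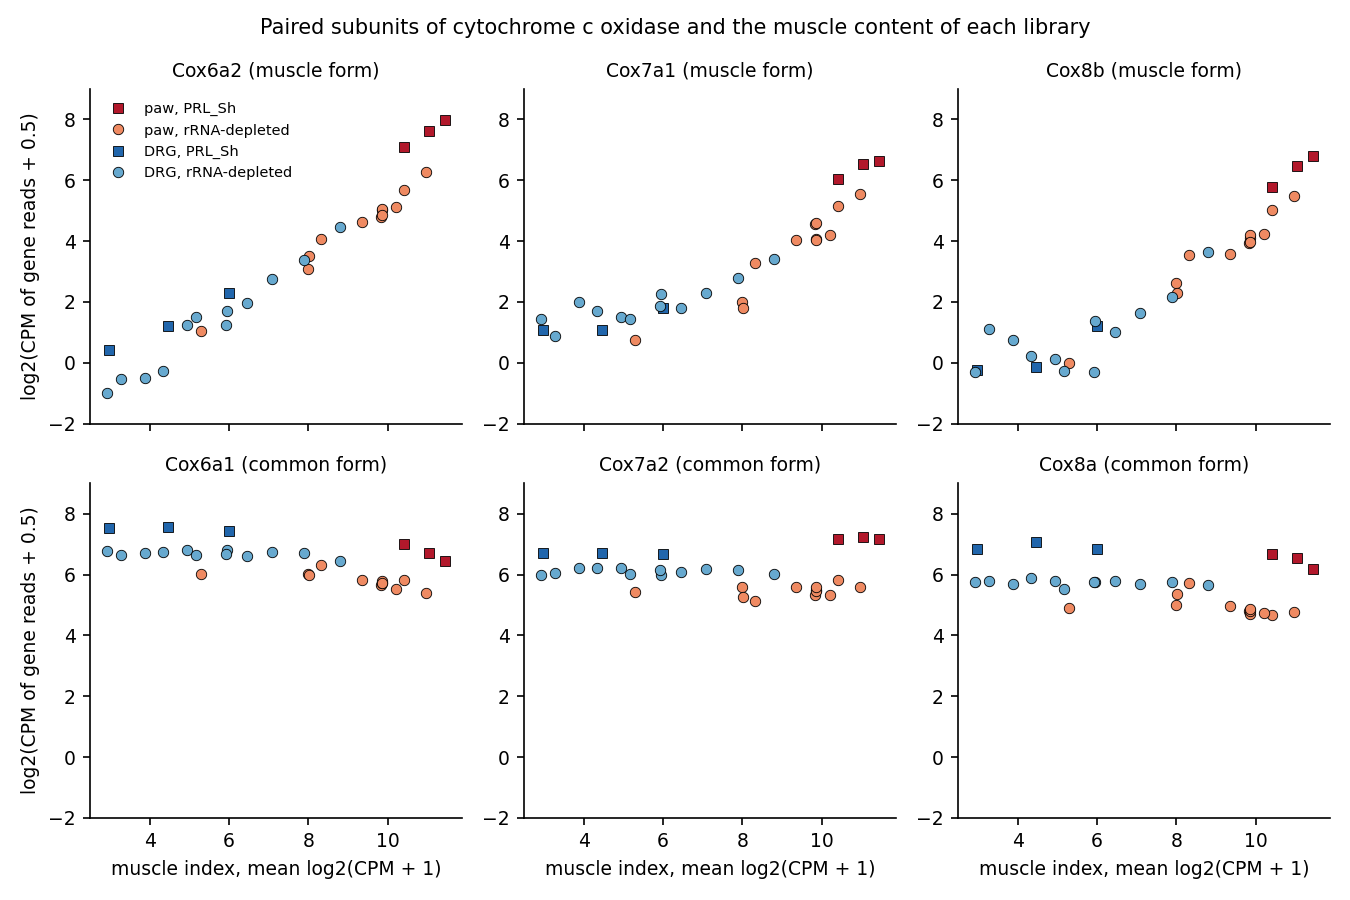
Level of each muscle form (top row) and its common partner (bottom row), as log2(CPM + 0.5), against the muscle index of the library, the mean log2(CPM + 1) of 20 muscle genes; each point is 1 of 30 libraries, coloured by tissue, with the mRNA kit libraries marked apart. The muscle forms climb with the index in both tissues, and the common forms do not.

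The slope of each member on the muscle index was estimated within groups, with a mean per group in the model, so that it used only differences between replicates. It is given as the log2 change per unit of index, 1 unit being a mean 2-fold change of the index genes. In paw 30 of 82 members (36.6%) had a positive slope with adjusted p under 0.05 and 1 (1.22%) a negative slope, against 5.69% and 3.46% of all genes (edgeR quasi-likelihood test, Benjamini-Hochberg). The muscle forms had slopes near 1, at 1.07 ± 0.07 for Cox7a1, 0.95 ± 0.09 for Cox8b and 0.92 ± 0.06 for Cox6a2 (SE; adjusted p = 3.3e-07, 1.1e-05 and 4.4e-07). Common partners were not called, with slopes of -0.08 for Cox6a1, 0.00 for Cox7a2 and -0.04 for Cox8a.

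Away from the muscle forms the slopes in paw were shallow and spread over every complex. The median was 0.13 over the 82 members, against -0.01 over all genes tested. In complex I, 15 of 40 members had positive calls, all among the core subunits (5 of 7) and the accessory subunits (10 of 28). None of the 6 assembly or coupling factors of the rule, 1 of which belongs to complex V, was called. Ndufs7, which carries the last iron-sulphur cluster before ubiquinone, had a slope of 0.17 ± 0.03 and Ndufv2 of the NADH-binding module 0.14 ± 0.03. In complex II, 2 of 4 passed, Sdhb, the iron-sulphur subunit, at 0.19 ± 0.04 and Sdha at 0.14 ± 0.03. In complex III 3 of 8 passed, with Uqcr10, a small subunit, at 0.20 ± 0.04, and in complex V 4 of 15. In complex IV 6 of 15 passed, a count that includes the 3 muscle forms beside Cox5a, Cox6c and Cox7b. Of the examples named for each complex, Cox5a (0.17 ± 0.04), Atp5b (0.13 ± 0.03) and Ndufs1 (0.14 ± 0.04) passed, and Uqcrfs1 did not (0.14 ± 0.05, adjusted p = 0.098).

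Ndufa4l2 had the single negative slope in paw, at -0.20 ± 0.04 (adjusted p = 0.0043). It is a relative of the complex IV subunit gene Ndufa4 and is known to be induced by hypoxia. The number of members called depended on single libraries: it fell to 13 without male paw Veh replicate 1, 15 without female paw Veh replicate 2, 16 without female paw PRL replicate 2, 18 without female paw Veh replicate 3 and 20 without male paw Veh replicate 2. Under every one of 12 omissions 12 members were called, namely Cox6a2, Cox6c, Cox7a1, Cox8b, Ndufa4l2, Ndufa5, Ndufb7, Ndufb9, Ndufs7, Ndufv2, Sdhb and Uqcr10.

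In DRG 2 of 82 members (2.44%) had a positive slope and 0 a negative one, against 1.15% and 0.0068% of all genes. These were Cox6a2, at 1.20 ± 0.10 (adjusted p = 9.2e-06), and Sdhb, at 0.09 ± 0.02 (adjusted p = 0.026). Cox8b (0.72 ± 0.16) and Cox7a1 (0.33 ± 0.07) had adjusted p of 0.051 and 0.050. Cox6a2 was called without any one library and was not called with a slow fibre index in place of the muscle index (1.11, adjusted p = 0.122), whereas the call of Sdhb was lost, and the count fell to 1, without female DRG PRL replicate 1, female DRG PRL replicate 3, male DRG PRL replicate 3, male DRG Veh replicate 1 or male DRG Veh replicate 3; the count was 4 without female DRG Veh replicate 1.

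**Figure D2:**
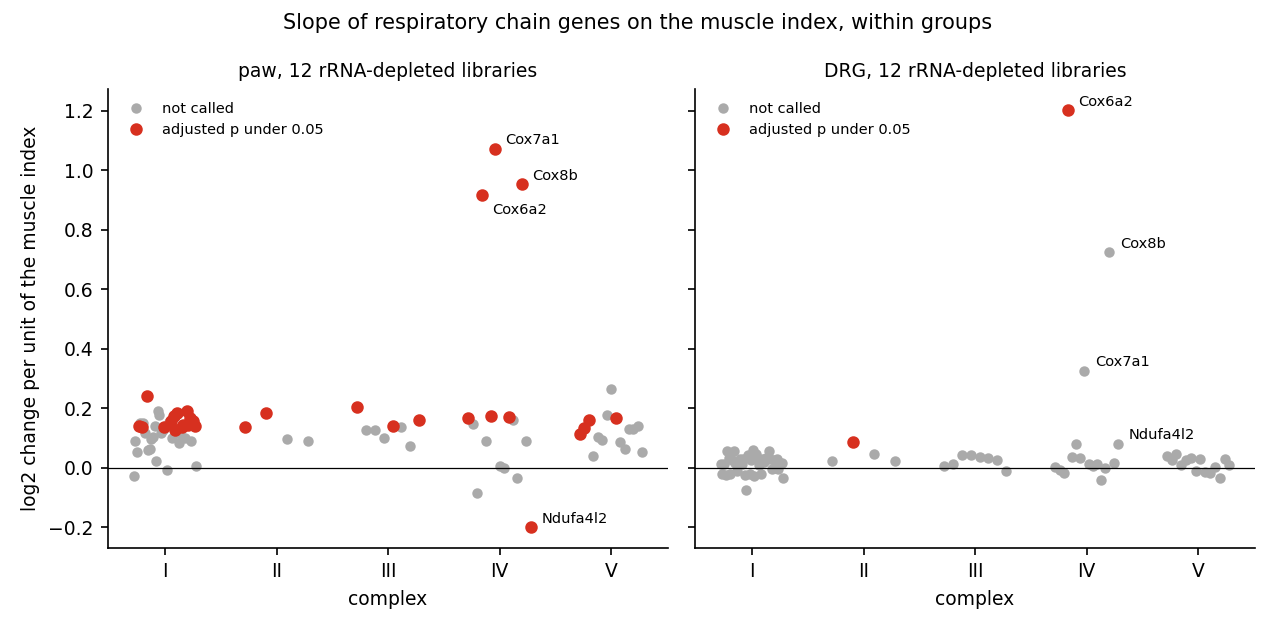
Slope of each tested member on the muscle index (log2 change per unit of index) by complex, in the 12 rRNA-depleted paw libraries (left) and the 12 rRNA-depleted DRG libraries (right), with members past adjusted p of 0.05 in colour. In paw the 3 muscle forms stand near 1, most other members lie slightly above 0 and Ndufa4l2 lies at -0.20.

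Related pathways were read from lists in the same fit. In paw 8 of 15 tricarboxylic acid (TCA) cycle genes had positive slopes, among them Idh3b (0.18 ± 0.04) of NAD-dependent isocitrate dehydrogenase. Of 17 glycolysis genes 6 had positive slopes, led by Pgam2 (0.91 ± 0.05), the muscle phosphoglycerate mutase, and Pfkm (0.73 ± 0.05), the muscle phosphofructokinase. Eno3, also positive, is itself an index gene. Another 3 glycolysis genes, Aldoc, Hk1 and Pfkp, had negative slopes. Of 13 fatty acid oxidation genes 2 had positive slopes, Cpt1b (1.25 ± 0.17), the muscle carnitine palmitoyltransferase, and Acadl (0.15 ± 0.04), and 1 a negative slope, Cpt1a (-0.11 ± 0.03), the liver-type form. No call was made among 13 regulators of mitochondrial biogenesis or 22 assembly factors outside the symbol rule.

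Prolactin against vehicle was asked first in DRG. No member rose or fell in female DRG (0 of 82, against 0.653% of all genes), in male DRG (0 of 82, against 0.517%) or in the average of the sexes (0 of 82, against 3.6%). The median log2 change over members was 0.02 in female DRG and -0.02 in male DRG. At an unadjusted p under 0.05 there were 5 members in female DRG, 3 in male DRG and 3 in the average of the sexes, and DESeq2 called 0 in each.

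The members with the smallest p in female DRG were the muscle forms. Cox6a2 had 21.5, 3.39 and 0.214 CPM in PRL libraries, against 0.194, 0.328 and 1.86 CPM in Veh libraries. Cox7a1 had 10.2, 2.95 and 3.53 CPM in PRL libraries, against 1.36, 2.79 and 2.35 CPM in Veh libraries. Replicate 1 of PRL was far above the rest for both, and the groups overlapped for Cox6a2 but not for Cox7a1. Log2 changes were 3.45 ± 1.37 for Cox6a2, 1.37 ± 0.49 for Cox7a1 and 2.37 ± 1.03 for Cox8b (SE; adjusted p = 0.34, 0.29 and 0.38). With the muscle index as a covariate the log2 values of Cox6a2 and Cox8b were -0.45 and -0.01. The 20 index genes had a median log2 difference of 3.37 in this comparison with 0 called.

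In male DRG the smallest p belonged to Cox7b of complex IV (-0.18, adjusted p = 0.27), Ndufs4, an accessory complex I subunit (-0.17, adjusted p = 0.31), and Ndufa2 (0.23, adjusted p = 0.32). The effect of prolactin did not differ between the sexes in DRG for any member past the threshold (0 of 82, against 0% of all genes; smallest adjusted p 0.99, Cox7b), with 1 member at an unadjusted p under 0.05. Female and male Veh libraries did not differ for any member in DRG (0 of 82, against 0.0544%) or in paw (0 of 82, against 0.109%), with 2 members at an unadjusted p under 0.05 in each tissue, and DESeq2 called 0 in these comparisons as well. The TCA, glycolysis, fatty acid oxidation, regulator and assembly lists had 0 calls in female DRG and in male DRG.

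In paw some chain genes rose with prolactin in males, and none was called in females. In male paw 11 of 82 members (13.4%) rose and 0 fell, against 12.3% and 10.1% of all genes, so the share that rose was close to that of all genes. The median log2 change was 0.40 over members, against 0.02 over all genes tested, and 92.7% of members had a positive value. In female paw 0 members were called (2 at an unadjusted p under 0.05, 0 by DESeq2), against 7.55% of all genes, the median was -0.09 and 24.4% of members had a positive value. In bulk tissue, fewer cells of a type and less RNA per cell cannot be told apart.

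**Figure D3:**
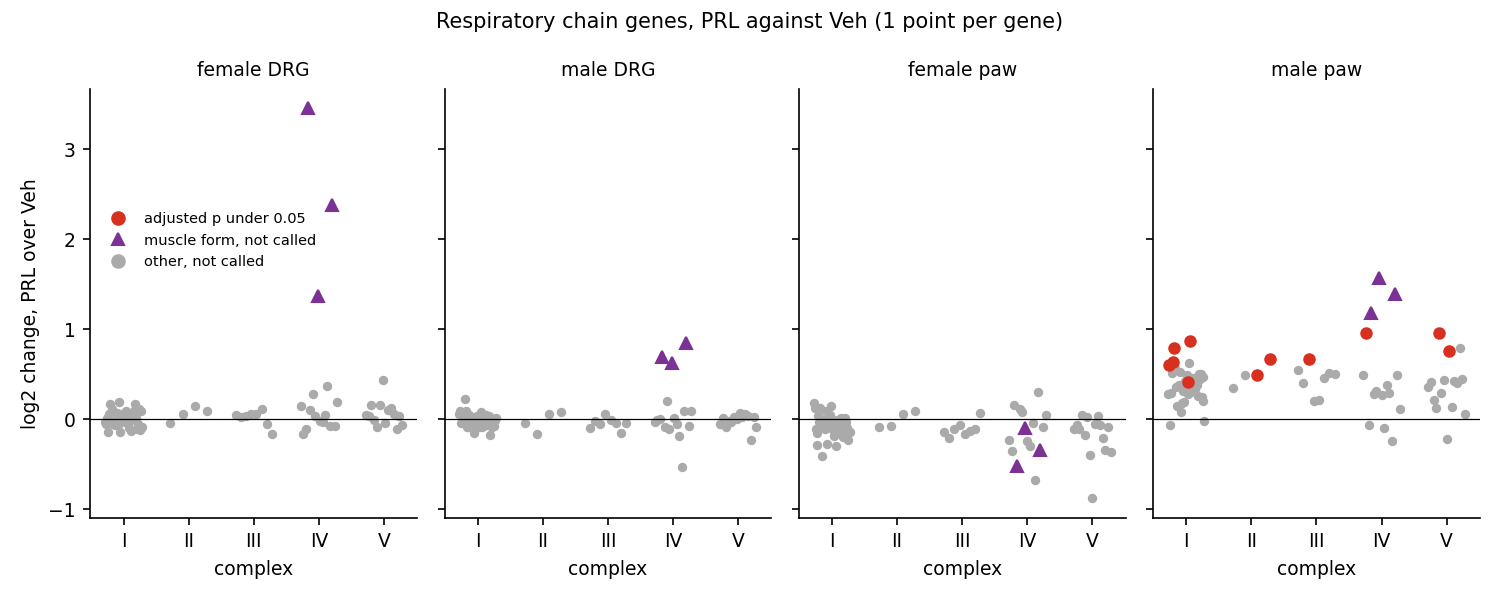
Log2 change, PRL over Veh, of each tested member by complex in female DRG, male DRG, female paw and male paw (3 libraries per group), with members past adjusted p of 0.05 in red and the muscle forms as purple triangles. Coloured calls appear in male paw alone, where most members lie above 0.

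Complex II had the member with the smallest p. Sdhd, a membrane anchor of succinate dehydrogenase, had 65.2, 58.1 and 59.1 CPM in male PRL paw libraries, against 34.1, 40.5 and 42.7 CPM in male Veh paw libraries. All 3 PRL values lay above all 3 Veh values. The log2 change was 0.67 ± 0.14 (SE, adjusted p = 0.0054), and its partner anchor Sdhc rose by 0.49 ± 0.14.

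In complex I, 5 of 40 members rose, 5 of 28 accessory subunits and 0 of 7 core subunits, beside 12.3% of all genes. Counts this small do not separate accessory from core subunits. Ndufb6, a membrane-arm subunit, had 26.5, 22.3 and 27.4 CPM in PRL libraries, against 11.4, 12.5 and 18.6 CPM in Veh libraries, with no overlap (0.87 ± 0.20, adjusted p = 0.0092). Ndufa1, a small membrane subunit, had 21.1, 21.9 and 21.5 CPM in PRL libraries, against 12.3, 15.9 and 15.2 CPM in Veh libraries (0.60 ± 0.14, adjusted p = 0.012). Ndufa13, also known as GRIM-19, had 58.1, 44.2 and 49.3 CPM in PRL libraries, against 29.0, 35.1 and 36.4 CPM in Veh libraries (0.63 ± 0.16, adjusted p = 0.018). For each of them PRL replicates stood above Veh replicates. Ndufa2 of the matrix arm had 23.6, 19.0 and 27.2 CPM in PRL libraries, against 10.2, 13.1 and 17.8 CPM in Veh libraries (0.79 ± 0.21, adjusted p = 0.020), and Ndufb3 rose by 0.41 ± 0.12. The core subunit Ndufs1 had a log2 value of 0.42 ± 0.18 with adjusted p = 0.12. Over complexes I and V, 0 of 6 assembly or coupling factors rose.

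In complex III, 1 of 8 members rose, Uqcrb (0.67 ± 0.20), the ubiquinone-binding subunit and one of the genes with many shared windows. In complex IV, 1 of 15 rose, Cox5b, a zinc-binding subunit (0.96 ± 0.25, adjusted p = 0.016). It had 30.4, 24.8 and 40.8 CPM in PRL libraries, against 10.8, 18.8 and 20.9 CPM in Veh libraries. Cox5b had 25.9% of windows shared, and its call was lost without PRL replicate 3. In complex V, 2 of 15 rose, Atp5e (0.96 ± 0.27), the epsilon subunit of the stalk, and Atp5g3 (0.75 ± 0.22), a gene for the proton-carrying c ring. Outside the symbol rule Cox4i1, the common form of complex IV subunit 4, also rose (0.45 ± 0.12, adjusted p = 0.022). Most core subunits had positive values that did not pass, such as Atp5b at 0.41 ± 0.17 (adjusted p = 0.11) and Sdha at 0.35 ± 0.17 (adjusted p = 0.17).

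**Figure D4:**
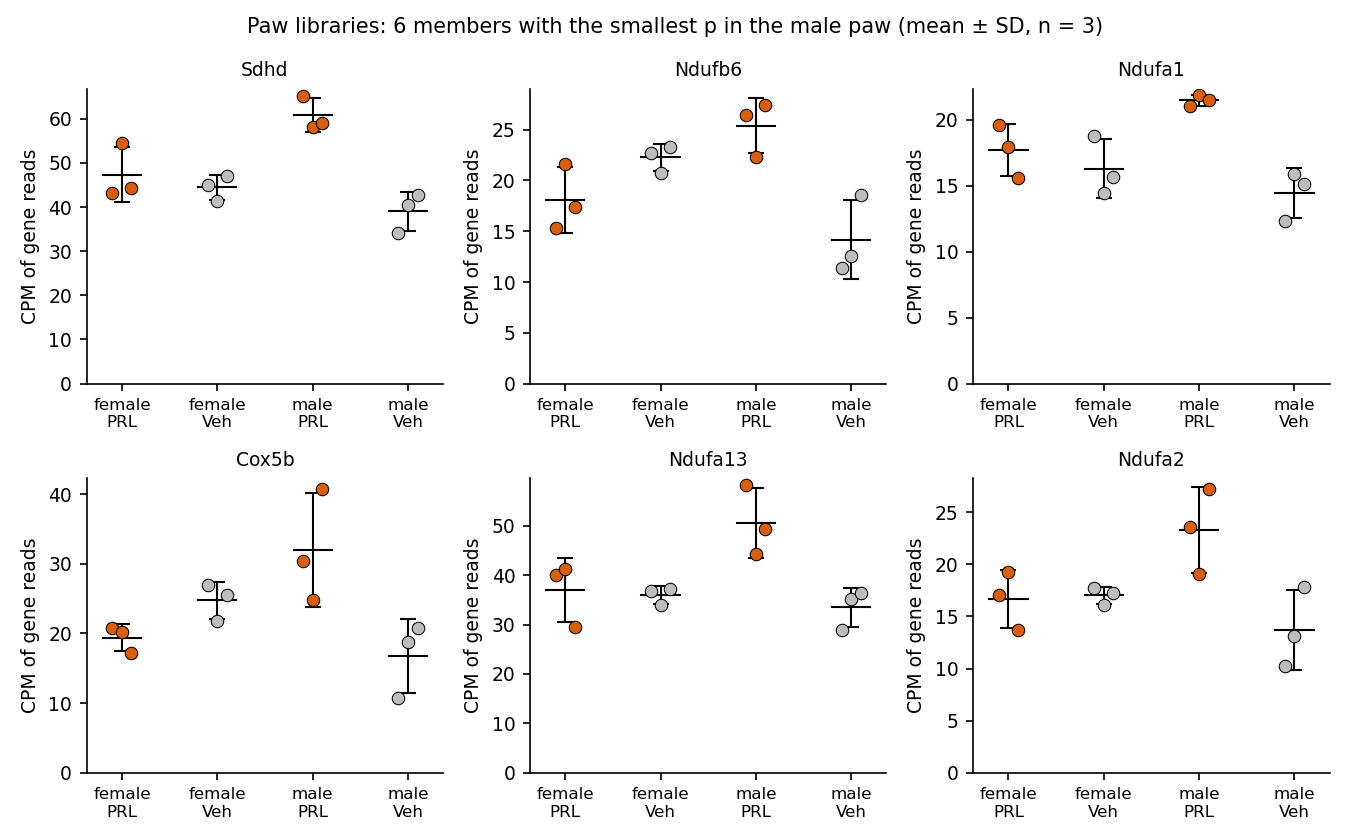
CPM of Sdhd, Ndufb6, Ndufa1, Cox5b, Ndufa13 and Ndufa2 in each paw library of female PRL, female Veh, male PRL and male Veh, with the mean and SD of 3 libraries. The male PRL libraries lie above the male Veh libraries for all 6 genes, and the female groups overlap for all but Cox5b, where PRL libraries lie below Veh libraries.

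The muscle forms had the largest log2 values in male paw without passing the test. Cox6a2 had 76.7, 32.4 and 51.1 CPM in PRL libraries, against 10.9, 34.2 and 28.3 CPM in Veh libraries, and Cox8b had 43.8, 18.0 and 32.3 CPM, against 4.45, 18.2 and 15.0 CPM. The groups overlapped for both. Cox7a1 had 46.1, 23.8 and 35.0 CPM in PRL libraries, against 2.97, 17.9 and 16.0 CPM in Veh libraries, with no overlap. Log2 changes were 1.18 ± 0.74, 1.39 ± 0.75 and 1.57 ± 0.83 for Cox6a2, Cox8b and Cox7a1 (adjusted p = 0.28, 0.21 and 0.20).

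Several cell type markers moved in the same comparison. The 20 muscle index genes had a median log2 value of 0.89 with 0 called, and they took 6.51% to 14.2% of gene reads in male PRL paw libraries, against 1.82% to 8.84% in male Veh paw libraries. With the muscle index as a covariate 13 members rose in male paw, all 11 of those above together with Cox7a1 and Ndufb5. The share of all genes in that fit was not set beside this count, so it is not read as a result about the members. Of 4 macrophage markers 3 rose, with a summed level of 358 to 469 CPM in PRL libraries, against 166 to 262 CPM in Veh libraries. Of 5 keratinocyte markers 2 fell, with a summed level of 25270 to 34690 CPM in PRL libraries, against 41320 to 49480 CPM in Veh libraries, and of 6 adipocyte markers 3 fell, at 53.9 to 79.5 CPM against 86.1 to 93.8 CPM. No marker of these lists was at 0 in a whole group, and the part of macrophage, keratinocyte and adipocyte content in the changes of the members was not tested.

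The male paw count rested in part on single libraries. It fell to 3 without PRL replicate 1 (Cox5b, Ndufb6 and Sdhd), 4 without PRL replicate 3, 4 without Veh replicate 1 and 5 without Veh replicate 2, the shallow library, and it was 13 without PRL replicate 2 and 14 without Veh replicate 3. Sdhd and Ndufb6 were called under each omission. PRL and Veh libraries did not overlap for 31 of 82 members in male paw, against 39.1% of all genes, for 8 in female paw, against 24.1%, for 8 in male DRG, against 19.8%, and for 3 in female DRG, against 16.0%.

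In female paw the members with the smallest p had values below 0. Cox7a2l, linked to the joining of complexes III and IV, had a log2 value of -0.30 ± 0.09 (adjusted p = 0.076), Ndufa6 -0.41 ± 0.15 (adjusted p = 0.14) and Ndufaf1, a complex I assembly factor, -0.28 ± 0.14 (adjusted p = 0.28). The muscle forms varied as widely as in males, with Cox6a2 at 16.2, 27.1 and 1.55 CPM in PRL libraries, against 24.2, 8.06 and 32.2 CPM in Veh libraries. All 4 macrophage markers rose in female paw as well, with a summed level of 398 to 578 CPM in PRL libraries, against 152 to 199 CPM in Veh libraries, and the 20 muscle index genes had a median of -0.55 with 0 called.

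Averaged over the sexes in paw, 2 members rose and 1 fell (2.44% and 1.22%), against 14.9% and 10% of all genes. Sdhd rose by 0.38 ± 0.10 (adjusted p = 0.013) and Ndufa1 by 0.36 ± 0.10 (adjusted p = 0.023), and Cox7a2l fell by 0.20 on the log2 scale (SE 0.06, adjusted p = 0.040). In male paw alone Sdhd and Ndufa1 had log2 values of 0.67 and 0.60, and neither was called in female paw. Their female minus male differences were -0.58 ± 0.19 and -0.48 ± 0.20, not called either (adjusted p = 0.27 and 0.36). Sdhd was called in the average under each omission of a library. The call of Ndufa1 was lost without female PRL replicate 1, female Veh replicate 2, female Veh replicate 3, male PRL replicate 1 or male PRL replicate 2, and that of Cox7a2l when any one of 9 of the 12 libraries was left out. The counts were 1 without female PRL replicate 1, female Veh replicate 2 or female Veh replicate 3, and 7 without male Veh replicate 3. With the muscle index as a covariate 12 members were called, without a share of all genes in that fit beside the count.

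The difference between female and male responses in paw was tested directly and was not called for any member (0 of 82, against 0.00679% of all genes). At an unadjusted p under 0.05 there were 23 members. The share of all genes at that cut was not set beside this count, so it is not read as a result about the members. The smallest p belonged to Ndufb6 (female minus male log2 difference -1.17 ± 0.28, adjusted p = 0.205), Cox5b (-1.31 ± 0.35, adjusted p = 0.205) and Ndufa6 (-0.77 ± 0.21, adjusted p = 0.207). DESeq2 called 2 members, Ndufb6 and Cox5b. The calls in male paw and their absence in female paw are therefore not shown to differ by the edgeR test.

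Related pathways in male paw were read beside the 12.3% of all genes that rose and the 10.1% that fell. There 0 of 15 TCA cycle genes, 0 of 17 glycolysis genes and 0 of 13 regulators were called. Of 22 assembly factors outside the symbol rule 1 rose, Cox17 (0.90 ± 0.22), a copper chaperone for complex IV. Of 13 fatty acid oxidation genes Etfb, an electron carrier subunit, rose (0.62 ± 0.14) and Hadh, a dehydrogenase of the cycle, fell by 0.38 on the log2 scale. These lists had 0 calls in female paw. In the average of the sexes, against 14.9% higher and 10% lower over all genes, 1 of 13 regulators rose, Ppargc1b (0.50 ± 0.12), and 1 fell, Tfb2m, a mitochondrial transcription factor, by 0.37. In that average 1 of 17 glycolysis genes rose, Ldha (0.26 ± 0.08), and of the fatty acid oxidation genes Etfb again rose and Hadh fell.

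Paw was set against DRG in Veh libraries, 6 of each tissue. Of 83 members tested 9 were higher in paw (10.8%) and 46 lower (55.4%), against 43.1% and 42.7% of all genes, and the median log2 difference, paw over DRG, was -0.25 over members and 0.01 over all genes. Ndufa4l2 had 64.5 to 121.4 CPM in PRL_Sh paw, 43.5 to 93.0 CPM in the 12 rRNA-depleted paw libraries, 1.32 to 2.33 CPM in PRL_Sh DRG and 0.716 to 2.54 CPM in the 12 rRNA-depleted DRG libraries. Its tissue difference in Veh was 5.68 ± 0.23 (SE, adjusted p = 4.7e-11), while Ndufa4 itself had 35.6 to 73.1 CPM in rRNA-depleted paw and 80.7 to 99.1 CPM in rRNA-depleted DRG. The log2 ratio of Ndufa4l2 to Ndufa4 was thus 0.15 ± 0.50 in paw and -5.63 ± 0.42 in DRG (SD, n = 12 each).

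The muscle forms were higher in Veh paw, by 3.91 ± 0.63 for Cox6a2, 3.47 ± 0.53 for Cox8b and 2.25 ± 0.49 for Cox7a1, and their common partners were lower, by -0.89 ± 0.07 for Cox6a1, -0.76 ± 0.09 for Cox8a and -0.61 ± 0.07 for Cox7a2. All 20 muscle index genes were higher in paw, with a median of 4.50. Further members higher in paw were Atp5g2 (1.50 ± 0.31), Uqcrb, Atp5c1, Ndufs3 and Uqcrc1 (0.25 ± 0.05), a core protein of complex III. By complex, 1 member was higher and 23 lower of 40 in complex I, 0 and 3 of 4 in complex II, 2 and 1 of 8 in complex III, 4 and 11 of 16 in complex IV, and 2 and 8 of 15 in complex V. All 6 assembly or coupling factors were lower in paw, with Ndufaf3 at -1.51 ± 0.15, Atp5s at -1.35 ± 0.14 and Ndufaf1 at -0.65 ± 0.07. The subunits Sdha (-0.55 ± 0.09), Ndufs1 (-0.48 ± 0.09) and Cox5a (-0.39 ± 0.10) were lower too, and Uqcrfs1 was not called (0.15 ± 0.11).

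The same tissue contrast in PRL_Sh libraries, which share no library with the Veh contrast, ran mostly the other way. Of 83 members 68 were higher in paw (81.9%) and 6 lower (7.23%), against 39.9% and 40.2% of all genes, with a median of 0.63. The muscle forms had still larger differences, at 6.69 ± 0.54 for Cox8b, 6.42 ± 0.53 for Cox6a2 and 5.39 ± 0.28 for Cox7a1. Uqcrb (1.97 ± 0.09), Ndufb5 (1.36 ± 0.09), Ndufa6 (1.25 ± 0.08) and Uqcrq (1.09 ± 0.07) were among those with the smallest p. Complex I had 32 higher and 2 lower, complex II 3 and 0, complex III 8 and 0, complex IV 12 and 3, and complex V 13 and 1. The 20 index genes were again all higher, with a median of 5.85.

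Of the 9 members higher in Veh paw 8 were also higher in PRL_Sh paw, where they made 8 of 68. Of the 46 lower in Veh paw 31 were higher in PRL_Sh paw, among them Cox7a2 (0.51 ± 0.07) and Ndufb3 (0.32 ± 0.08). Another 6 were lower in paw in both, all 6 of the PRL_Sh list: the assembly factors Ndufaf2 and Ndufaf3, the coupling factor Atp5s, the common forms Cox6a1 and Cox8a, and the testis form Cox6b2. Ndufa4l2 had nearly the same difference in both, 5.70 ± 0.31 in PRL_Sh. The muscle forms were thus higher and Cox6a1 and Cox8a lower in paw in both contrasts, and 31 members were called in opposite directions in them. The contrasts differ in kit, group and sex, since the Veh libraries came from both sexes and the PRL_Sh libraries from females.

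**Figure D5:**
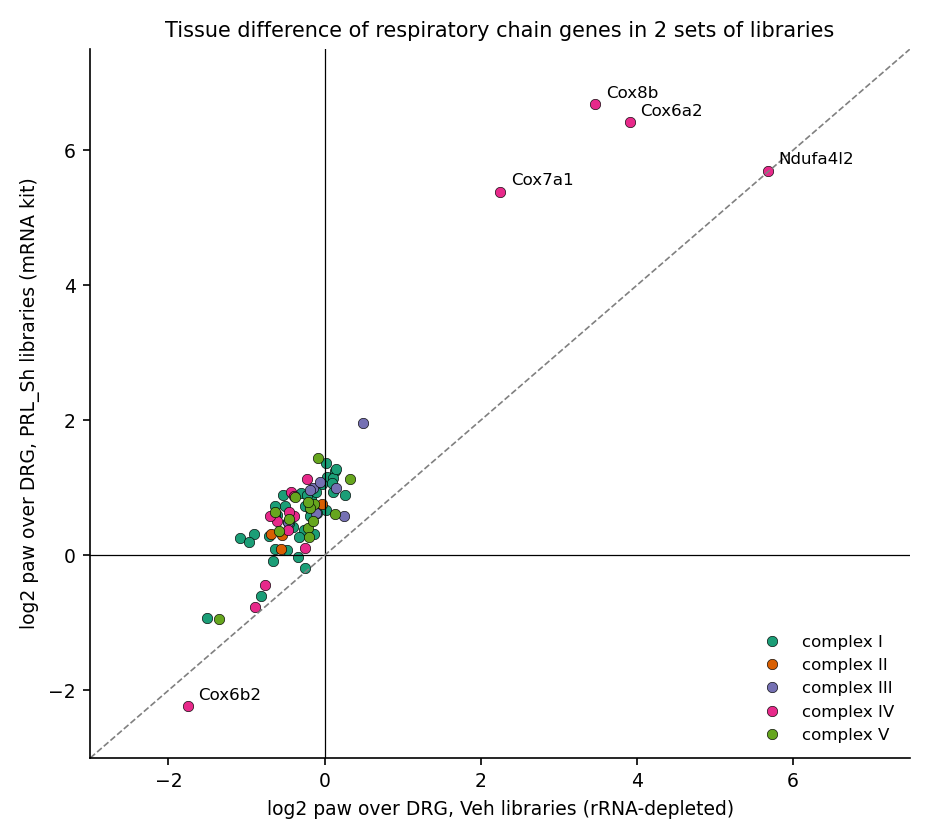
Paw over DRG log2 difference of each tested member in Veh libraries (horizontal axis, rRNA depletion, 6 libraries per tissue) and in PRL_Sh libraries (vertical axis, mRNA kit, 3 libraries per tissue), with the diagonal marking equal differences. Nearly all members lie above the diagonal; Ndufa4l2 lies on it, at 5.68 and 5.70.

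The tissue contrast was also taken in PRL females, the rRNA-depleted group that PRL_Sh libraries can be set against. It was added after seeing the data and came from a model that also holds the PRL_Sh libraries, so scaling and spread were shared across kits. In PRL females 2 members were higher in paw (2.41%) and 48 lower (57.8%), against 36% and 37.6% of all genes, with a median of -0.39. The 2 were Ndufa4l2 (5.31 ± 0.33) and Uqcrb (0.56 ± 0.11). The muscle forms were not called, at 0.79 ± 1.00 for Cox6a2, 0.94 ± 0.73 for Cox7a1 and 0.81 ± 0.94 for Cox8b, and neither were the 20 index genes, in groups where muscle content differed between replicates.

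PRL_Sh was also set against PRL within each tissue. In paw 79 of 83 members were higher in PRL_Sh (95.2%) and 0 lower, against 29.4% and 29% of all genes, with a median of 1.55. Ndufa6 (2.20 ± 0.10), Ndufa2 (2.45 ± 0.15), Atp5k (2.14 ± 0.13) and Atp5j2 (1.91 ± 0.11) were among those with the smallest p, the last 2 being small ATP synthase subunits. The 4 not called were Ndufb4, Cox6b2, Cox7c and Ndufa4l2. The muscle forms were higher by 3.69 ± 0.80 for Cox6a2, 3.25 ± 0.80 for Cox8b and 2.93 ± 0.76 for Cox7a1, beside 10 of 20 index genes.

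In DRG 58 of 82 members were higher in PRL_Sh (70.7%) and 9 lower (11.0%), against 29.3% and 32.3% of all genes, with a median of 0.41. Ndufa4 (0.90 ± 0.06), Ndufa2 (1.04 ± 0.07), Ndufb7 (1.08 ± 0.08), Cox8a (0.98 ± 0.07) and Atp5j (0.95 ± 0.07) were higher. Among those that were lower were values of -2.40 ± 0.32 for Cox7c, -1.92 ± 0.13 for Ndufb4, -0.91 ± 0.20 for Atp5g1 and -0.86 ± 0.08 for Cox6c, and Uqcrb, Ndufa12 and Cox5b were lower too. Of these, Cox7c, Ndufb4 and Uqcrb are genes with many shared windows. Ndufa12, Cox5b, Cox6c and Atp5g1 had 26.2%, 25.9%, 21.1% and 11.6% of windows shared. Among the members named as higher, Atp5j had 5% and the others 0%. These are a few of the 58 that were higher, and the shares of the rest were not set beside them. The named genes therefore do not show that higher and lower members differ in shared sequence. The part of shared sequence in these values was not tested. Cox8b (-2.77 ± 1.00) and Cox7a1 (-1.67 ± 0.51) were also lower, beside 6 of 20 index genes, and both calls were lost without female DRG PRL replicate 1, where the values were -0.91 for Cox8b and -0.88 for Cox7a1.

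The difference of tissue differences, PRL_Sh minus PRL in females, was tested in 1 model, a comparison added after seeing the data. Of 83 members 76 were higher (91.6%) and 0 lower, against 25.9% and 12.7% of all genes. The median was 1.29 over members and 0.19 over all genes. With DESeq2 size factors the counts were 73 and 0 members, against 16.8% and 18.8% of all genes, and the medians 1.07 and -0.02, so the share of higher calls among all genes moved with the scaling (67.1% with TMM, 47.2% with DESeq2 size factors). Uqcr11, a small complex III subunit (1.59 ± 0.10), Ndufa6 (1.66 ± 0.13) and Cox7a2 (1.59 ± 0.13) had the smallest p. The muscle index genes had a median of 5.0 in this comparison with 14 of 20 higher, and kit, group and muscle content cannot be told apart.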

How the data were processed

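Total RNA was sequenced as 50-nucleotide single reads from 500 ng of input, per the labels' protocols. The deposited files hold raw read counts per gene; bcl2fastq, TopHat2, HTSeq and the build mm9 are named in the submitters' processing notes, with versions, annotation and strand mode not given in the sources used here. In each file the 5 closing summary lines were left out of library sizes. Groups came from the sample titles. Counts were tested with edgeR 4.0.16 (R 4.3.3; filterByExpr, TMM scaling, glmQLFit and glmQLFTest, Benjamini-Hochberg over all genes, threshold 0.05), in the 12 rRNA-depleted libraries of a tissue for prolactin, sex and muscle slope, in the 12 Veh libraries for tissue, and in the libraries of the groups compared otherwise. An exception was the tissue contrast in PRL females, taken from the model that also holds the PRL_Sh libraries. The same fits were also run on simulated data with known changes, drawn with the same spread for every gene. That check does not cover the spread between the real replicates. CPM are of gene reads without TMM scaling, whereas log2 changes follow it. Intervals cover the spread between libraries only. Members and all lists (muscle index, slow fibre, brown adipocyte, adipocyte, cardiac, sensory neuron, keratinocyte, macrophage, other chain genes, assembly factors, regulators, TCA cycle, glycolysis, fatty acid oxidation) were chosen with earlier results of these data known. Named are the paired forms, a core subunit per complex, and per comparison up to 6 members that rose and 6 that fell by smallest p, or the 3 smallest where fewer than 3 passed. Marker lists not described above gave in male paw 0 of 6 slow fibre genes called (median log2 1.69), 1 of 3 brown adipocyte genes higher, 0 of 2 cardiac genes called and 1 of 4 sensory neuron genes lower. Alternatives were DESeq2 1.42.0, its size factors, no filter, fits to the compared groups alone, the muscle index or slow fibre index as a term, a replicate block, and leaving out each library. Replicates differed by more than sampling noise (smallest chi-square per degree of freedom 2.42), so none was counted as a duplicate. Promoter windows and lengths came from RefSeq and GENCODE annotation of GRCm38, used for sequence and length and not for counting. The series text gives 18 males and 12 females, whereas the sample labels give 18 female and 12 male libraries; the labels were followed.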

Additional observations from a re-analysis of the deposited data

Results flagged for a closer look

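Paw against DRG differed between PRL_Sh and PRL females for 76 members in the higher direction and 0 in the lower one, by the test of the difference itself (edgeR quasi-likelihood, adjusted p under 0.05). The leading values were 1.592 for Uqcr11, 1.663 for Ndufa6, 1.589 for Cox7a2, 1.683 for Atp5j2, 1.736 for Ndufb5 and 1.487 for Ndufb3, as PRL_Sh minus PRL differences of log2 paw over DRG. PRL_Sh and PRL libraries came from different kits, so kit and group cannot be told apart.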

How the results depend on the processing

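With the muscle index as a covariate Cox6a2 in female DRG changed to -0.4536 (3.45 without it), Cox8b there to -0.007513 (2.37) and Cox6a2 in the DRG average to -0.432 (2.07), none of them called in either fit. The same covariate gave 12 called members in the paw average, against 3, with no share of all genes set beside it. DESeq2 gave 2 members in the paw sex difference, against 0, and 4 in the DRG muscle slope, as did no filter, whereas the slow fibre index gave 1, against 2; the causes were not tested. Leaving out 1 library in turn gave 3 to 14 called members in male paw, 1 to 7 in the paw average, 1 to 4 in the DRG slope and 13 to 39 in the paw slope. With a replicate block, male paw gave 10 members, the paw average 2, Veh tissue 9 higher and 45 lower, PRL_Sh tissue 64 and 6, PRL_Sh against PRL 55 and 8 in DRG and 75 and 0 in paw. In 0 of 14 pairs of groups compared were the same-numbered libraries all correlated over 0.1 (-0.62 to 0.42). With 3 libraries per group this check cannot tell whether libraries of different groups came from the same animal. Over named genes and alternatives, 1941 values kept direction and side of the threshold, 108 lost the call, 6 gained it and 3 reversed. Low counts of Cox8c, Cox7b2 and Ndufs5 limit any reading of those genes.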
